A study of Mus musculus with 6 samples.

Results

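The odorant receptor (OR) genes Olfr987 to Olfr1140 were described in RNA of the olfactory mucosa from 3 wild-type mice and 3 RTP1,2DKO littermates. A gene was taken as a member when its name was Olfr with a number in the range Olfr987 to Olfr1140 and no pseudogene suffix, which gave 105 of the 24661 genes in the count tables. All 105 lie on chromosome 2 between positions 85330779 and 87747581 of the GRCm38 build, a stretch of 2.42 Mb, and their numbers follow their order along the chromosome. In the GENCODE M21 annotation, 40 are on the plus strand and 65 on the minus strand, and 104 are intact genes, while Olfr1010 is annotated as a polymorphic pseudogene. Of the 154 numbers in the range, 49 have no member, and 25 of the numbers occur in the tables as pseudogene names.

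The labels give C57BL/6 as the strain and 21 days as the age of all mice, and the methods describe sex-matched littermates, 2 males and 1 female per genotype. In RTP1,2DKO the coding regions of Rtp1 and Rtp2 are replaced in the germ line, in a line made from 129/B6 hybrid embryonic stem cells, so both genes are missing in every cell. Total RNA of the whole olfactory mucosa, which holds sensory neurons together with other cells, was sequenced, and each mouse gave 1 library. The total estimated count was 31125410 to 41636996 per mouse.

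ORs are G protein-coupled receptors that bind odorants on the cilia of olfactory sensory neurons (OSNs). A mature OSN expresses a single OR gene from a single allele, so the RNA level of an OR in the tissue follows both the number of OSNs that chose it and the RNA in each of them. In bulk tissue, fewer cells and less RNA per cell cannot be told apart. Rtp1 and Rtp2 encode accessory proteins that help many ORs reach the cell surface. OR genes stand in tandem clusters in the genome, and the chromosome 2 cluster holds many intact genes that arose by duplication, which leaves near-identical neighbours.

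The targeted genes followed the labels. With the mice listed in the order of their numbers, here and below, Rtp1 had 20522, 25301 and 13543 normalized counts in the wild-type against 90.6, 85.5 and 108.8 in RTP1,2DKO. Rtp2 had 8497, 9511 and 7157 against 58.0, 26.2 and 51.0. Of 10 marker genes of mature OSNs, such as Omp, 9 were lower in RTP1,2DKO with a median log2 fold change of -1.07, and their summed normalized counts ranged from 166433 to 190952 in the wild-type and from 84870 to 91431 in RTP1,2DKO. The part of this change in the values below was not tested. Of 6 markers of immature OSNs, 2 were higher, of 5 red blood cell genes 1 was higher, and none of the markers of OSN progenitors, horizontal basal cells, sustentacular cells, ensheathing glia, motile cilia or macrophages passed the test.

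Because markers of mature OSNs moved with the genotype, each member was measured on 2 scales. The all-gene scale used size factors over all genes, and asks whether the RNA of a member changed in the tissue. The OR scale used size factors over intact ORs, and asks whether a member changed relative to the typical OR. A member past the threshold on the OR scale is called underrepresented or overrepresented. The OR scale shifted the log2 fold changes upward by a median of 0.97.

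Some members have closely similar coding sequences, and the stretch where they differ most is printed. Olfr1028 and Olfr1029 are neighbours with 97.2% protein identity, Olfr1126 and Olfr1129 share 93.6%, and Olfr1133 and Olfr1134 share 93.3%. The first of these pairs moved apart on the OR scale, as did the second, and the members of the last pair moved together. Each line gives the 90 coding bases of the pair with the most differences, 5′ to 3′ on the coding strand, from GENCODE M21 transcripts in the single coding exon, with the differing bases in capitals. The Olfr1028 stretch lies at chr2:85951111-85951200 (plus strand) and the Olfr1029 stretch at chr2:85975291-85975380 (plus strand), with 6 differences. The Olfr1126 stretch lies at chr2:87457751-87457840 (plus strand) and the Olfr1129 stretch at chr2:87575670-87575759 (plus strand), with 21 differences. The Olfr1133 stretch lies at chr2:87645891-87645980 (minus strand) and the Olfr1134 stretch at chr2:87656692-87656781 (minus strand), with 13 differences.
Olfr1028: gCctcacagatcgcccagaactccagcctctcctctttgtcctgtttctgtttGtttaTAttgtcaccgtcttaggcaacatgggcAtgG
Olfr1029: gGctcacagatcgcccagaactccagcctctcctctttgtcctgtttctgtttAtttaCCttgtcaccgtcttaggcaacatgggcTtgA
Olfr1126: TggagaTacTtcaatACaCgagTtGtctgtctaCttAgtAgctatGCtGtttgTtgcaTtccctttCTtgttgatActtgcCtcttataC
Olfr1129: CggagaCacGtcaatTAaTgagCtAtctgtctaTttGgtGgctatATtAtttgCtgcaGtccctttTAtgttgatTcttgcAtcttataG
Olfr1133: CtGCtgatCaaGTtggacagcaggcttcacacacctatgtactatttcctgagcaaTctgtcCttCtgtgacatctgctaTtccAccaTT
Olfr1134: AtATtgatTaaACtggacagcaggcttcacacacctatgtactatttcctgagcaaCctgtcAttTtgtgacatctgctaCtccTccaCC

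Across the 104 translated members, the open reading frames held 305 to 348 codons. The closest other member had a median protein identity of 81.7%, and the closest pair of all, Olfr1049 and Olfr1051, reached 98.4%. Reads from such genes can be split between them by the estimation of counts. As a measure of this, a median of 91.1% of a member's 31-base words occurred in no other gene, 44 members had at least 95% such words, and 7 had under 60%, with the lowest share, 44.4%, in Olfr1084. Olfr1013 and Olfr1014 also overlap over 1937 bases on the same strand, and Olfr1034 overlaps the pseudogene Olfr1035-ps1 on the other strand, so the counts of these members are less certain.

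On the all-gene scale, 45 of the 105 members (42.9%) were lower in RTP1,2DKO, 3 were higher and 57 did not pass the test, by the quasi-likelihood test of edgeR with p-values adjusted (Benjamini-Hochberg) across 22152 genes. Over all genes, 3.15% were lower and 0.46% higher, and over intact ORs 38.3% were lower and 4.36% higher, so the share of lower members stood close to that of ORs in general. The median log2 fold change was -1.35 for the members, -1.08 for all intact ORs and 0.02 for all genes. In 59 members every RTP1,2DKO mouse lay below every wild-type mouse, and in 8 above, where the shares were 52.0% and 12.0% over intact ORs and 9.24% and 7.2% over all genes.

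The OR scale divided the members. Of 104 intact members, 36 were underrepresented, 29 overrepresented and 39 not past the threshold, and the background over intact ORs was 25.9% underrepresented and 29.1% overrepresented. The median log2 fold change was -0.41 for the members and -0.11 for all intact ORs. With the counts scaled to the total on intact ORs instead, 55 members were lower and 15 higher. Over all intact ORs this scaling gave 47.9% lower and 16.4% higher. All 36 underrepresented members stayed lower. Of the 29 overrepresented members, 15 stayed higher, 14 no longer passed and 0 turned. Groups did not overlap in 41 members with RTP1,2DKO below and 28 with it above, against 29.5% and 30.9% of intact ORs.

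Combining both scales, 35 members were lower on each, 10 were lower only on the all-gene scale, 26 were overrepresented without passing on the all-gene scale, 3 were higher on both, 29 passed on neither, and 1, Olfr1049, with a mean of 4.96 counts, was underrepresented alone. Olfr1010, which was fitted on the all-gene scale only, makes up the total and had a log2 fold change of 1.96 (adjusted p = 0.39).

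**Figure D1:**
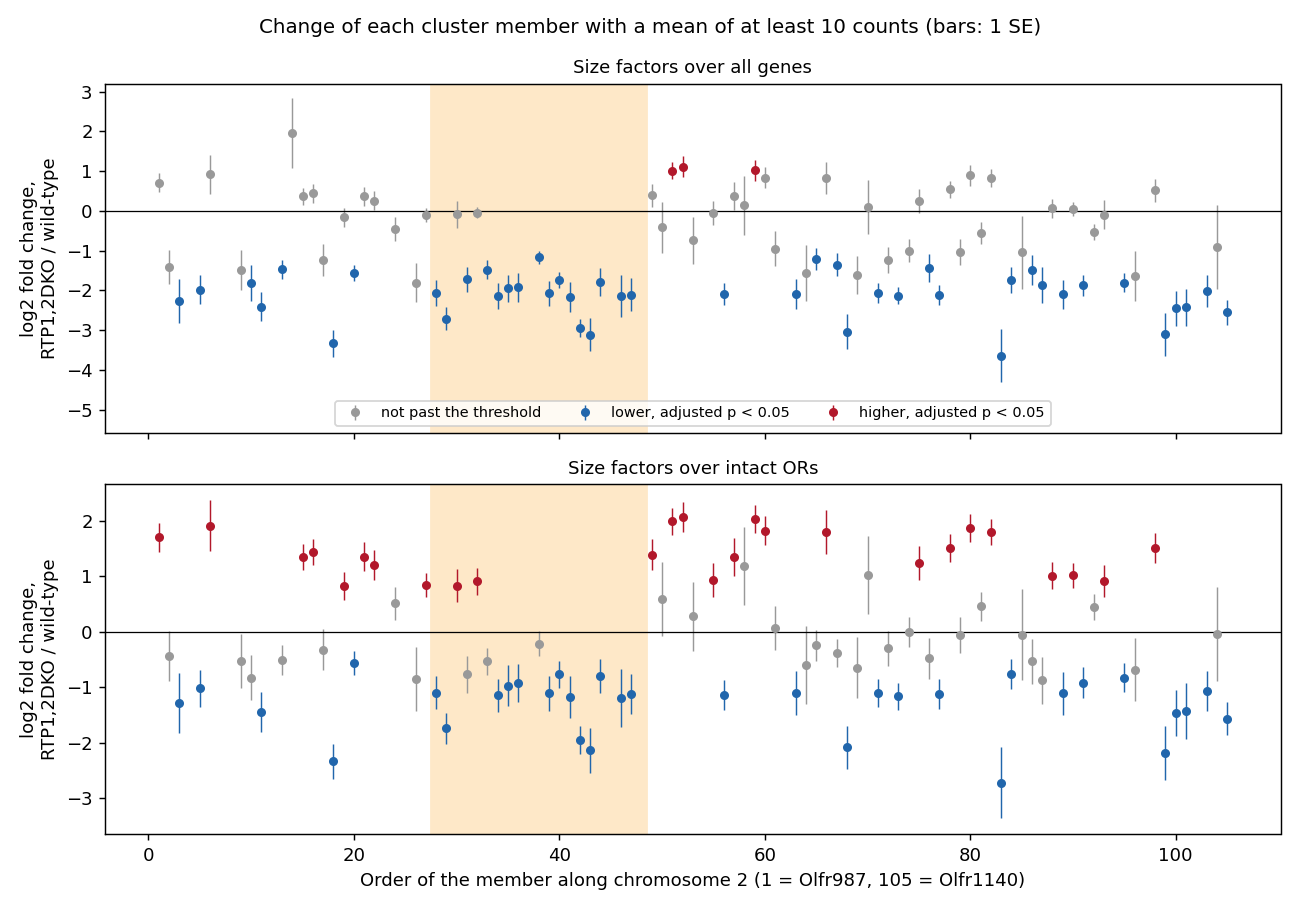
The log2 fold change (RTP1,2DKO over wild-type, bars 1 SE) of each member with a mean of at least 10 counts is plotted against its order along chromosome 2, on the all-gene scale (top) and the OR scale (bottom). Blue and red points passed an adjusted p of 0.05. On the all-gene scale 3 members were higher, and most members of the shaded stretch, Olfr1029 to Olfr1053, were lower.

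The members with the largest decreases, among those with a mean of at least 10 counts, stand at several places in the cluster. Among them, Olfr1046 lies next to Olfr1047, and Olfr1133 next to Olfr1134. Olfr1111 had 26.9, 64.9 and 60.6 all-gene-normalized counts in the wild-type mice and 7.4, 0.9 and 3.9 in the RTP1,2DKO mice. Its log2 fold change was -3.65 ± 0.67 (SE) on the all-gene scale and -2.72 ± 0.64 on the OR scale (adjusted p = 0.0060 and 0.00030). Olfr1015 fell from 154, 298 and 154 counts to 22.1, 18.3 and 19.6, with log2 fold changes of -3.33 ± 0.33 and -2.34 ± 0.31 on these scales (adjusted p = 0.00012 and 1.6e-08). The RTP1,2DKO mice were nearly equal in Olfr1015, while wild-type mouse 2 stood above the other wild-type mice.

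Olfr1046 and Olfr1140, both among the members with the highest level in the wild-type, also fell. For Olfr1046 the OR-normalized counts were 305.7, 357.3 and 368.4 in the wild-type and 59.3, 121.8 and 86.7 in RTP1,2DKO. Its log2 fold change was -2.94 ± 0.23 on the all-gene scale and -1.94 ± 0.25 on the OR scale (adjusted p = 2.1e-05 and 1.1e-08). Olfr1140, the last member along the chromosome, had 177.7, 265.2 and 174.2 all-gene-normalized counts against 34.8, 48.8 and 20.6, a log2 fold change of -2.56 ± 0.33 on that scale (adjusted p = 0.00059). In both genes the lowest wild-type mouse stood well above the highest RTP1,2DKO mouse.

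Olfr1047, the neighbour of Olfr1046, had 97.2, 129.8 and 82.7 counts in the wild-type and 13.7, 15.4 and 5.9 in RTP1,2DKO (log2 fold change -3.12, all-gene scale). Olfr1093 had 142.7, 122.1 and 68.4 counts against 22.1, 8.7 and 9.8 (-3.04). Olfr1030 had 195.5, 385.5 and 262.4 counts against 50.6, 34.9 and 43.1 (-2.72). These 3 genes were separated between the genotypes in every mouse, and they were underrepresented on the OR scale too, with log2 fold changes of -2.13, -2.08 and -1.74.

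Olfr1133 (-2.18), Olfr1134 (-1.46) and Olfr1006 (-1.44) were also among the largest decreases on the OR scale, and in each the genotypes did not overlap. Olfr1133 had 46.5, 80.9 and 100.9 all-gene-normalized counts in the wild-type and 14.5, 8.7 and 2.9 in RTP1,2DKO. All 10 members named here as decreased remained lower on both scales whichever mouse was left out.

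Olfr1131 was not detected in any RTP1,2DKO mouse. It had 12.0, 22.5 and 21.3 estimated counts in the wild-type and 0 in each RTP1,2DKO mouse, and against a floor of 3 counts over the group it was at least 19.1-fold lower (adjusted p = 0.010 on the all-gene scale). Its mean of 9.30 counts kept it out of the list of largest decreases, and it was picked out after its values were seen. Its closest member, Olfr1132, which lies beside it on the other strand with 79.4% protein identity, had a log2 fold change of 0.52 ± 0.29 (adjusted p = 0.56) on the all-gene scale and was overrepresented on the OR scale at 1.51 ± 0.27.

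The 3 members that were higher on the all-gene scale, Olfr1056, Olfr1057 and Olfr1079, stand within 1 stretch of the cluster. Olfr1056 rose from 110.7, 194.6 and 158.8 all-gene-normalized counts in the wild-type to 286.6, 356.7 and 292.0 in RTP1,2DKO. Its log2 fold change was 1.01 ± 0.22 (adjusted p = 0.020). Olfr1057, its neighbour, rose from 60.5, 90.8 and 75 counts to 206.4, 142.6 and 139.2, a log2 fold change of 1.11 ± 0.26 (adjusted p = 0.034). Olfr1079 rose from 146.9, 189.9 and 114.7 counts to 210.7, 306.1 and 396.9, a log2 fold change of 1.02 ± 0.25 (adjusted p = 0.045).

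No RTP1,2DKO mouse overlapped the wild-type range in these 3 genes, although the adjusted p of each lay near the threshold. With each mouse left out in turn, Olfr1056 passed in 5 of 6 fits, Olfr1057 in 3 and Olfr1079 in 2. With the replicate number as a block, 5 members were higher, since Olfr1107 (adjusted p = 0.046) and Olfr1110 (adjusted p = 0.0067) passed as well. On the OR scale Olfr1056, Olfr1057 and Olfr1079 had the largest increases of the members with a mean of at least 10 counts, with log2 fold changes of 2.00, 2.07 and 2.03, and they passed in each of the 6 fits with a mouse left out.

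**Figure D2:**
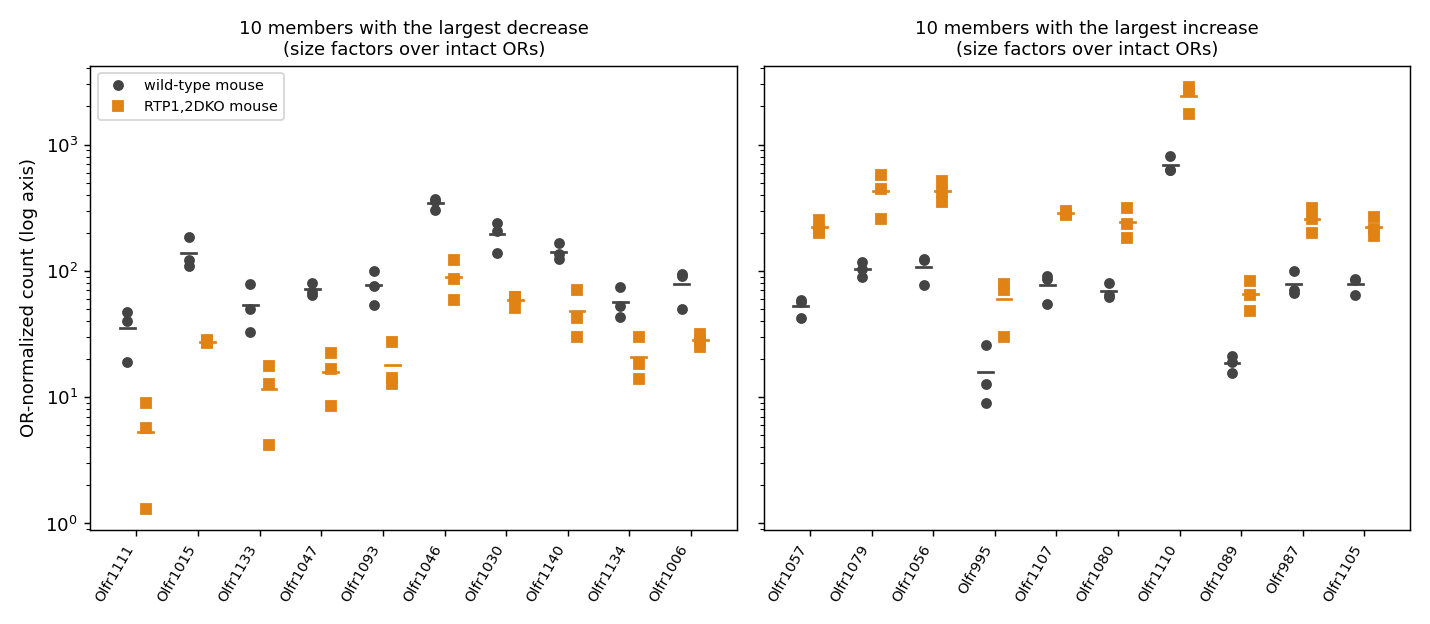
OR-normalized counts (log axis) of each mouse are plotted for the 10 members with the largest decrease and the 10 with the largest increase on the OR scale (called, mean of at least 10 counts, no overlap), and the short lines mark the mean of 3 mice. The genotypes do not overlap in any of the 20, which was a condition of the choice. On the all-gene scale the 10 decreases also passed the test, and of the 10 increases 3 did.

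Besides Olfr1056, Olfr1057 and Olfr1079, the largest increases on the OR scale among members with a mean of at least 10 counts were those of Olfr995 (1.92), Olfr1107 (1.88), Olfr1080 (1.83), Olfr1110 (1.80), Olfr1089 (1.80), Olfr987 (1.70) and Olfr1105 (1.51). On the all-gene scale the log2 fold changes of these 7 were 0.92, 0.89, 0.84, 0.82, 0.82, 0.71 and 0.54, with no adjusted p under 0.05. They kept a positive sign under each scaling, and passed when counts were scaled to the total on intact ORs. Olfr1107 had 121.7, 146.5 and 69.5 all-gene-normalized counts in the wild-type and 244.5, 191.0 and 193.6 in RTP1,2DKO. Olfr1105 had 119.9, 103.0 and 110.9 against 154.2, 184.3 and 148.2. Olfr987, the first member along the chromosome, had 140.6, 113.1 and 84.7 against 161.6, 216.8 and 177.8. The counts of Olfr1080 and Olfr987 are less certain, since only 53.2% and 55.7% of their 31-base words were unique. Their closest members, Olfr1082 (97.1% protein identity) and Olfr988 (89.3%), had OR-scale log2 fold changes of 0.07 and -0.44 and did not pass.

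The remaining called members changed less. A further 24 underrepresented members with a mean of at least 10 counts had OR-scale log2 fold changes from -1.43 to -0.57, and all 24 were lower on the all-gene scale too, between -2.43 and -1.55. In 21 of them the genotypes did not overlap on the OR scale. A further 16 overrepresented members had OR-scale values from 0.83 to 1.51, without overlap in 15. These 16 lay between -0.17 and 0.52 on the all-gene scale, where 10 had a positive sign and the other members of the 16 a negative one.

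Olfr1019 and Olfr1106, like Olfr1046, Olfr1056 and Olfr1093, were also assayed by other means in the study. For Olfr1019 the all-gene-normalized counts were 161.5, 136.5 and 96.3 in the wild-type and 146.4, 157.9 and 202.4 in RTP1,2DKO, which overlapped. Its log2 fold change was 0.36 ± 0.24 on the all-gene scale (adjusted p = 0.67) and 1.36 ± 0.26 on the OR scale (adjusted p = 1.2e-05), where it was overrepresented. Scaled to the total on intact ORs it was 0.55 (adjusted p = 0.066). Olfr1106 passed on neither scale, with log2 fold changes of -1.03 ± 0.33 (adjusted p = 0.15) and -0.05 ± 0.32 (adjusted p = 0.90), and its OR-normalized counts of 53.3, 72.3 and 53.1 in the wild-type overlapped those of 65.0, 48.5 and 59.7 in RTP1,2DKO.

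Levels were compared between members as FPKM, which corrects for transcript length. In the wild-type the median member stood at 2.79 FPKM, next to 2.70 for intact ORs. Olfr1033 was the highest member at 36 ± 5.7 FPKM (SD, n = 3) in the wild-type and 34.1 ± 7.5 in RTP1,2DKO, and it ranked 12 among the 1086 intact ORs in each genotype. Its all-gene-normalized counts were 5511, 4583 and 4299 against 5359, 4518 and 4033, mouse by mouse almost level. The log2 fold change of Olfr1033 was -0.05 ± 0.14 on the all-gene scale (adjusted p = 0.95), and on the OR scale it was overrepresented at 0.91 ± 0.25 (adjusted p = 0.0015), with the sign turned.

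Below Olfr1033 in the wild-type came Olfr1046 at 18.9 ± 5.6 FPKM, Olfr1140 at 18.4 ± 6.9, Olfr1090 at 14.5 ± 6.6, Olfr1110 at 14.0 ± 4.8 and Olfr1134 at 9.65 ± 2.7 (SD, n = 3). These neighbours in the order differed by less than their spread, except that Olfr1033 stood above all of them. In RTP1,2DKO the order was another one, with Olfr1110 at 23.9 ± 8.2 FPKM, Olfr1090 at 5.64 ± 1.3, Olfr1140 at 2.77 ± 1.3, Olfr1046 at 2.14 ± 0.64 and Olfr1134 at 1.30 ± 0.29. Olfr1110 thereby moved from rank 58 to rank 21 among intact ORs.

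The normalized counts of Olfr1110 were 890, 1313 and 809 in the wild-type and 2168, 1968 and 1196 in RTP1,2DKO on the all-gene scale. RTP1,2DKO mouse 3 lay below wild-type mouse 2, so the genotypes overlapped there, and the adjusted p was 0.065. On the OR scale the values were 626, 815 and 634 against 2655, 2864 and 1729, without overlap. Olfr1090 was lower on the all-gene scale (log2 fold change -1.35 ± 0.29, adjusted p = 0.017) and passed in 4 of the 6 fits that left out a mouse, but not on the OR scale (-0.37 ± 0.25, adjusted p = 0.20).

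**Figure D3:**
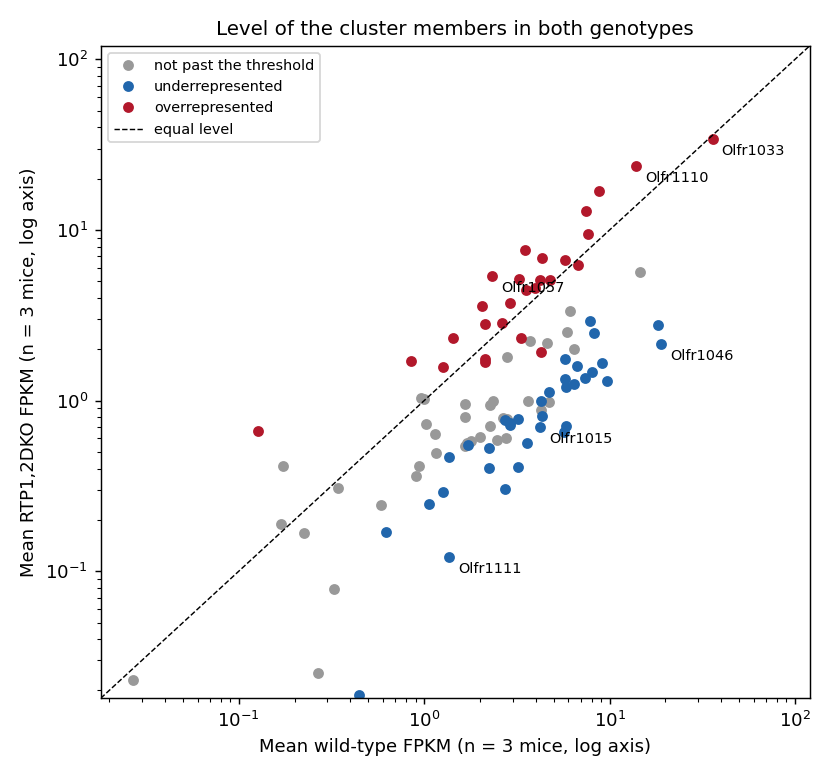
Mean FPKM in RTP1,2DKO is plotted against mean FPKM in the wild-type (both log axes, n = 3 mice each) for the 100 intact members with a value above 0 in both genotypes, and the dashed line marks equal levels. The 35 underrepresented members drawn lie below the line (Olfr1131 is listed at 0 in RTP1,2DKO) and Olfr1033 lies close to it. Overrepresented members (called on the OR scale) fall on both sides of the line.

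At the low end, 14 members had a mean under 10 counts, and 11 of these have a single exon in GENCODE M21, against 7 of the 91 members with higher means. The authors' extended models may hold further exons, and the part of the gene model in the low counts was not tested. The lowest were Olfr1128, with at most 1 count in any mouse, and Olfr1008 and Olfr1061, listed at 0 in each wild-type mouse. Against the floor of 3 counts over the group, Olfr1008 was at least 2.66-fold and Olfr1061 at least 3.74-fold higher in RTP1,2DKO. Each was overrepresented on the OR scale (adjusted p = 0.047 and 0.018), but not with the replicate number as a block (0.14 and 0.068). Olfr1008 had 0 counts in RTP1,2DKO mouse 2, and Olfr1061 had 0 counts in RTP1,2DKO mouse 3. Olfr1053 had 5, 3 and 3 counts in the wild-type and 0 in each RTP1,2DKO mouse, at least 3.78-fold lower against the same floor, and did not pass on either scale. In all, 5 of the 14 passed on the OR scale.

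The share of the counts on intact ORs that fell on the members reached 5.68%, 5.76% and 5.22% in the wild-type against 5.03%, 5.18% and 3.99% in RTP1,2DKO. The means were 5.55% ± 0.29 and 4.74% ± 0.65 (SD, n = 3). Every RTP1,2DKO mouse lay below every wild-type mouse, by as little as the step from 5.22% to 5.18%, and the difference of -0.82 percentage points had p = 0.1 in an exact two-sided permutation test, the smallest p that 3 mice against 3 allow. Without the OR with most counts, Olfr907, the difference was -0.50 with p = 0.3 (exact permutation test). The lowest share belonged to RTP1,2DKO mouse 3, and without this mouse the difference was -0.45.

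The members were also set against the other ORs of the chromosome 2 cluster, Olfr1141 to Olfr1274, of which 99 could be fitted. Of those, 49 were lower and 6 higher on the all-gene scale with a median log2 fold change of -1.07, and 26 were underrepresented and 23 overrepresented on the OR scale. The log2 ratio of member counts to the counts of Olfr1141 to Olfr1274 averaged -0.81 ± 0.02 in the wild-type and -0.86 ± 0.17 in RTP1,2DKO (SD, n = 3). This difference of -0.05 had p = 0.7 in the exact permutation test and changed sign to 0.03 without RTP1,2DKO mouse 3.

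Within the members, the shares of single genes differed between the genotypes. Olfr1033 alone held 26.4% ± 4.0 of the member counts in the wild-type and 33.9% ± 1.2 in RTP1,2DKO, and Olfr1110 held 5.42% ± 0.84 and 12.9% ± 2.6 (SD, n = 3). Neither share overlapped between the genotypes, and both had the smallest possible p of 0.1 in the exact permutation test. Olfr1110 was named in part for a rise without overlap on the OR scale, so its share is no separate support and is given as a description. The 36 underrepresented members together took 30.0%, 36% and 32.5% of the member counts in the wild-type and 10.1%, 9.41% and 10.9% in RTP1,2DKO, whereas the 29 overrepresented members took 54.7%, 47.7% and 50.5% and then 80.3%, 80.6% and 79.0%. The last shares follow from how these members were called and are given as a description. The median member had 88.5 ± 14.1 all-gene-normalized counts in the wild-type and 33.2 ± 3.9 in RTP1,2DKO, without overlap (exact permutation p = 0.1).

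**Figure D4:**
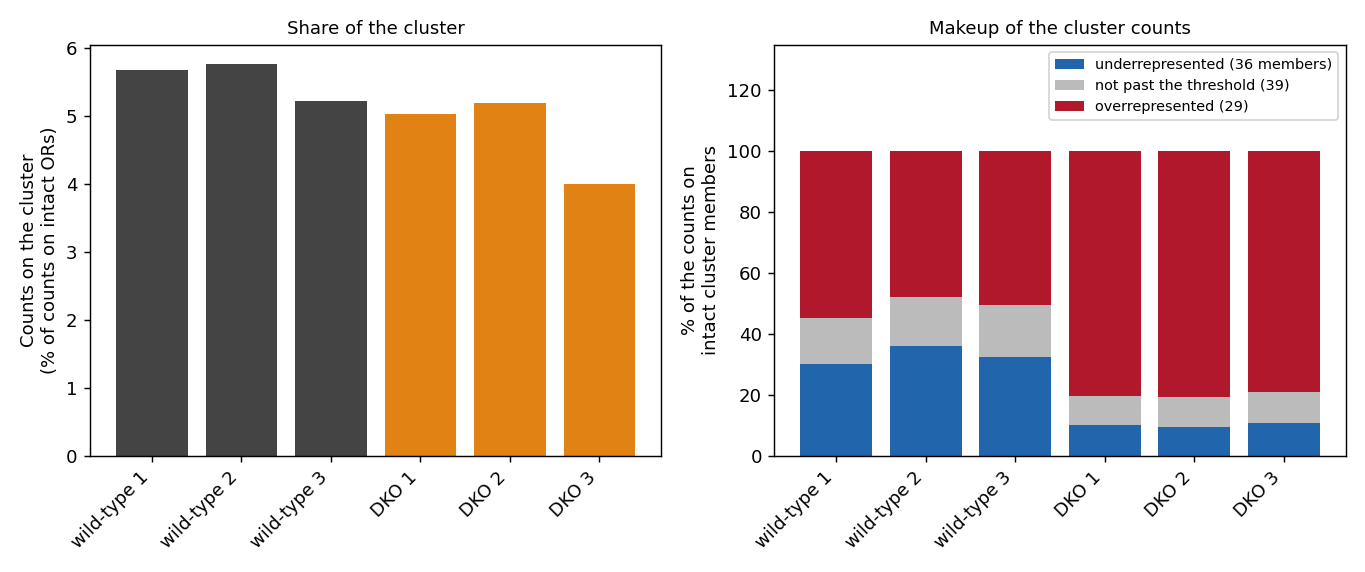
Bars on the left give, for each mouse, the percent of counts on intact ORs that fell on the cluster members (DKO stands for RTP1,2DKO). Bars on the right divide the counts on the 104 intact members among the classes called on the OR scale in the same mice. The underrepresented members go from 30.0% to 36% in the wild-type down to 9.41% to 10.9% in RTP1,2DKO, which follows from how they were called.

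Runs of lower members were counted along the chromosome over the members alone, so other genes between them did not break a run. Such a gene is Olfr52, an intact OR among Olfr1042 to Olfr1048 that was lower on the all-gene scale and not underrepresented. The longest unbroken run of lower members on the all-gene scale held 7, from Olfr1042 to Olfr1048, and the longest run of underrepresented members held 9, from Olfr1043 to Olfr1052. The latter includes Olfr1049, and with the replicate number as a block, where Olfr1049 did not pass, the longest run of underrepresented members held 6, from Olfr1043 to Olfr1048. Stretches were then set off after the values were seen, so no test is given. Over all intact ORs tested, 38.3% were lower on the all-gene scale, 25.9% were underrepresented and 29.1% overrepresented. From Olfr987 to Olfr1028, 7 of 27 members were lower on the all-gene scale, and 5 were underrepresented and 9 overrepresented on the OR scale. From Olfr1029 to Olfr1053, 16 of 21 were lower and 0 higher on the all-gene scale, and the median log2 fold change was -2.07. A negative value on that scale was found in 20 of the 21, and in 78 of all 105 members. On the OR scale 14 of the 21 were underrepresented and 3 overrepresented. In this stretch Olfr1028's near copy Olfr1029, then Olfr1030, Olfr1046 and Olfr1047, stand beside Olfr1033, which did not pass on the all-gene scale.

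From Olfr1054 to Olfr1082, the next 13 members, 1 was lower and 3 higher, and the median log2 fold change was 0.37. On the OR scale 8 of these 13 were overrepresented and 1, Olfr1065, was underrepresented at -1.13 ± 0.27. From Olfr1084 to Olfr1140, 21 of 44 were lower, 16 underrepresented and 9 overrepresented. Neighbours in that last stretch often differed. Olfr1104 was underrepresented at -1.12 ± 0.27 on the OR scale and the next gene on the same strand, Olfr1105, was overrepresented at 1.51 ± 0.26. Olfr1110 and Olfr1111, also next to each other on the same strand, had log2 fold changes of 1.80 ± 0.24 and -2.72 ± 0.64 on that scale.

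As a description over members whose mean reached 10 counts, the log2 fold changes of adjacent members on the OR scale had a Pearson correlation of 0.14 over 89 neighbouring pairs. Those of a member and its closest member by protein sequence had 0.25 over 90 members. With both members of a pair held to at least 95% unique 31-base words, the value was 0.31 over 40 members. The partner was then not always the closest of all members. For example, Olfr1006, the closest member to Olfr1015, had 90.1% unique words and could not enter. All of these values come from the same 6 libraries, and close copies can share reads. The wild-type level, as log2 FPKM, had a correlation of -0.10 with the log2 fold change over 90 members.

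Near-identical members did not always move together. Olfr1028 and Olfr1029, whose sequences are shown above, had OR-scale log2 fold changes of 0.84 ± 0.22 and -1.09 ± 0.30 (adjusted p = 0.00095 and 0.0019). On the all-gene scale Olfr1028 had 800, 679 and 709 counts in the wild-type and 830, 526 and 674 in RTP1,2DKO, which overlapped, with a log2 fold change of -0.11, and Olfr1029 had 122.6, 186.6 and 114.2 against 44.4, 32.1 and 24.2 and was lower at -2.07. Of the 31-base words of these genes, 70.8% and 76.3% were unique.

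Olfr1126 and Olfr1129 likewise went apart on the OR scale, at 0.92 ± 0.29 and -0.82 ± 0.27, and on the all-gene scale at -0.10 and -1.81. Only 59.8% of the words of Olfr1129 were unique. Olfr1045 and Olfr1057, with 87.6% identity, had -1.18 ± 0.38 and 2.07 ± 0.27 on the OR scale, and they were called in opposite directions on the all-gene scale too (-2.17 and 1.11). In Olfr1039 and Olfr1040, with 90.9% identity, the OR-scale values were -0.92 ± 0.35 and 3.38 ± 1.18, the latter from a gene with 3.3, 17.3 and 9.4 estimated counts in RTP1,2DKO and a mean of 5.81.

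Other near-identical pairs moved in the same direction. Olfr1049 and Olfr1051 (98.4% identity) were both underrepresented, at -3.64 ± 1.65 and -1.20 ± 0.52 on the OR scale. Olfr1049 had a mean of 4.96 counts and did not pass with the replicate number as a block (adjusted p = 0.089). Olfr1057 and Olfr1062 (97.8%) were both overrepresented, at 2.07 and 0.94, and only Olfr1057 was higher on the all-gene scale, where Olfr1062 stood at -0.05. Olfr1133 and Olfr1134 were both underrepresented. Olfr1061 and Olfr1066 (91.1%) were both overrepresented, where Olfr1066 had an OR-scale log2 fold change of 1.35 ± 0.34 and an all-gene value of 0.37. Olfr1061 had a mean of 2.04 counts and did not pass with the replicate number as a block (adjusted p = 0.068). In the genes of these same-direction pairs, the unique share of the 31-base words ran from 47.5% (Olfr1049) to 81.1% (Olfr1134).

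Counted over pairs of members with a mean of at least 10 counts that both passed on the OR scale, 6 of 11 pairs with at least 80% identity had the same direction (54.5%). The share was 45.5% of 101 pairs between 60 and 80%, 50.1% of 441 pairs between 50 and 60%, and 50.4% of 1217 pairs under 50%. Pairs share members, so these shares are a description.

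**Figure D5:**
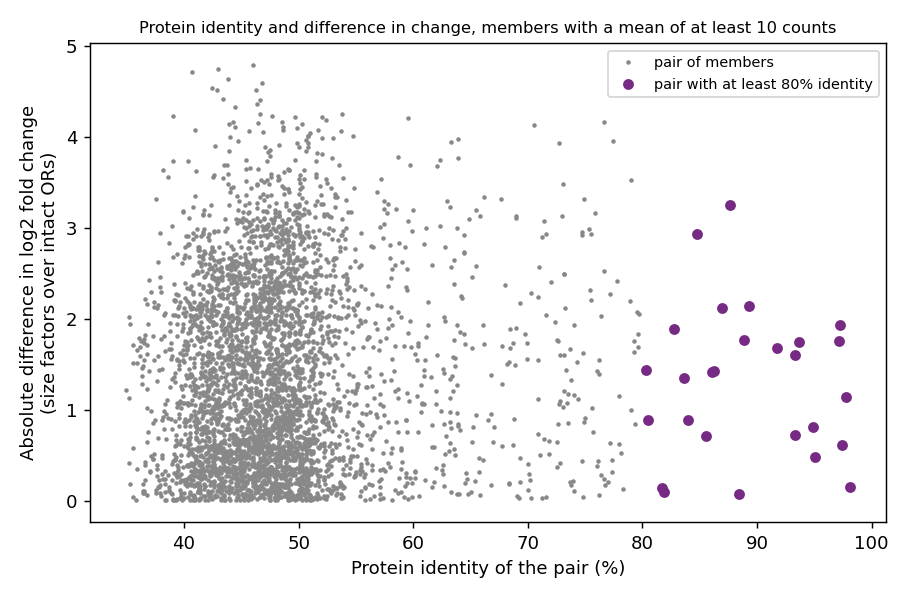
Each point is a pair of members with a mean of at least 10 counts, placed by protein identity in percent and by the absolute difference of the OR-scale log2 fold changes. The 27 pairs with at least 80% identity had a median difference of 1.41, and the 2872 pairs under 50% identity a median of 1.19.

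Sequence upstream of the first exon was printed for a member that was lower on both scales, Olfr1030, for an overrepresented member, Olfr1080, and for Olfr1134, which was underrepresented. OR promoters are known to hold homeodomain sites of the TAAT type and Olf1/Ebf sites, and an Olf1/Ebf-like word and the word TAATTA, the word TAATTG and the word TAATGA were searched on both strands. The sequences come from RefSeq (GRCm38.p6), 5′ to 3′ on the strand of the gene, and end where the earlier of the RefSeq and GENCODE starts begins, with matches in capitals. They lie at chr2:85979062-85979275 (plus strand), chr2:86558236-86558388 (minus strand) and chr2:87658461-87658707 (minus strand).
Olfr1030: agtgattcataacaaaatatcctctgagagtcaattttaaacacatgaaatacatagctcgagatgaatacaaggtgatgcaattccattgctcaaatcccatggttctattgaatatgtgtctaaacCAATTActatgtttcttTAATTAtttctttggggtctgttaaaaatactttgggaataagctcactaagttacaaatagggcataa
Olfr1080: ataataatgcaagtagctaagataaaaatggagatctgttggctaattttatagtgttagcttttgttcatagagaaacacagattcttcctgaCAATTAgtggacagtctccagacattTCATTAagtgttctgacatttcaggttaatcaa
Olfr1134: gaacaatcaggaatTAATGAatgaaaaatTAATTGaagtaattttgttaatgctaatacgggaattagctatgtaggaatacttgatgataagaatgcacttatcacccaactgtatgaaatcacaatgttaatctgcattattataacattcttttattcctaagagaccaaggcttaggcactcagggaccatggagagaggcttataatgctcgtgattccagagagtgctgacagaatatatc

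Of the members, 79 had a RefSeq window, and TAATTA was found in 19.0% of these windows, TAATTG in 35.4%, TAATGA in 26.6% and the Olf1/Ebf-like word in 0. The shares over all 32851 windows were 5.29%, 8.0%, 9.78% and 0.904%. The member windows held a median of 68.7% A and T, against 47.3% over all windows, and the part of base composition in these shares was not tested. Most RefSeq starts lay inside the GENCODE gene, a median of 2145 bases downstream of its start, so most windows are not the sequence before the first exon. Of the 8 members whose RefSeq start lay near that of GENCODE, 4 held a TAATTG match, among them the underrepresented Olfr1030 and Olfr1134 and the overrepresented Olfr1080. The underrepresented Olfr1093 and the overrepresented Olfr1110 were among those with none of the words searched.

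The genes known to act in OR choice and in the export of ORs were followed beside the members. Of 17 such genes, 2 were lower on the all-gene scale and 0 higher, where 3.15% and 0.46% of all genes were called. Reep1, a receptor accessory protein, had a log2 fold change of -0.78 ± 0.13 (adjusted p = 0.0036), and Ric8b, which helps to form the olfactory G protein, -0.92 ± 0.14 (adjusted p = 0.0016). The 10 markers of mature OSNs had a median log2 fold change of -1.07. The part of that change in the values of Reep1 and Ric8b was not tested. The transcription factors Lhx2 (0.19, adjusted p = 0.73) and Ebf1 (0.08, adjusted p = 0.92), the adaptor Ldb1 (0.04, adjusted p = 0.97), and Atf5 of the unfolded protein response (0.13, adjusted p = 0.78) did not pass.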

How the data were processed

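Bulk RNA-Seq of the mucosa was done on 3 mice of each genotype. The authors assigned reads to mouse transcripts from UCSC with extended OR annotations by kallisto and deposited estimated counts (expected counts, which need not be whole) and TPM per transcript. The submitters' processing notes name mm10, and the kallisto version and its strand setting are not given in the sources used here. The labels name a KAPA stranded kit, the methods another kit. Transcript lengths and effective lengths were deposited beside the counts, and the lengths were used only for FPKM.

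Estimated counts were summed per gene and rounded. edgeR 4.0.16 (quasi-likelihood F-test, genotype as the only term) was run in R 4.3.3 with DESeq2 1.42.0 median-of-ratios size factors, once on 22152 genes (a rounded count of at least 1 in any mouse), and once on the table of intact ORs, of which 1078 had a count. Intact ORs are the 1086 Olfr genes that neither the tables nor GENCODE M21 mark as pseudogenes. P-values were adjusted by Benjamini-Hochberg over each whole table with a threshold of 0.05. Exact permutation tests (scipy 1.17.1) compared values that exist once per mouse. Python 3.11.15, numpy 2.4.6, pandas 2.3.3, Biopython 1.88 (protein identity, global alignment) and matplotlib 3.10.9 were used. Total counts ranged from 31125410 to 41636996, with a median of 29.7 to 108.7 counts per member.

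Counts were simulated with 200 changed genes, as many raised as lowered, each with a mean of at least 10 counts. At log2 changes of 1 and 2 the fit over all genes recovered 66% and 89%, with 10.9% of calls false. The fit over intact ORs recovered 56% and 95%, with 7.36% false. Both false shares lay above the threshold of 0.05. In the data 25.9% of intact ORs were called underrepresented and 29.1% overrepresented, a larger part than was changed in the simulation. The simulation therefore does not show how the size factors act on such a table.

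The labels number the mice of both genotypes 1 to 3, and the methods describe littermates. Deviations from the group means correlated at 0.143, 0.181 and 0.101 between mice of the same number over 18152 genes. Between mice of different numbers the values ran from -0.223 to 0.092. The highest of these, wild-type mouse 1 with RTP1,2DKO mouse 3, stood close to the lowest same-number value. The numbers were taken to pair the mice, which leaves the pairing uncertain, and it was used only in the replicate block and the paired differences. Xist was high in replicate 2 of both groups, so shared sex and shared litter cannot be told apart. P-values measure the spread between these 6 mice.

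Members named in the text are those the study measured by another assay, the 10 largest decreases and 10 largest increases on the OR scale (adjusted p under 0.05, mean of at least 10 counts, no overlap), the 6 highest and 3 lowest in the wild-type, the 4 most similar pairs of each kind, members higher on the all-gene scale, and the first and last of the cluster. Members and lists were chosen with earlier results of these data known. As alternatives, TMM normalization, filterByExpr, a likelihood-ratio test, DESeq2, the replicate block, each mouse left out, another scaling of ORs, all Olfr genes, and only members with at least 95% unique words were tried. No protein table was used, and open reading frames were taken from GENCODE transcripts.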

Additional observations from a re-analysis of the deposited data

How the results depend on the processing

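The counts of called members stayed within a factor of 1.5 in the alternatives run, except as follows. Restricted to the 44 members with at least 95% unique words, which are fewer by construction, 21 were lower on the all-gene scale, 18 underrepresented and 13 overrepresented. With counts scaled to the total on intact ORs, 55 were underrepresented and 15 overrepresented. On that scaling the median member stood at -1.18 and the median intact OR at -0.89. The count of higher members on the all-gene scale was 5 with DESeq2 and 5 with the replicate block, and 1 to 4 with each mouse left out (1 without wild-type mouse 1, wild-type mouse 3 or RTP1,2DKO mouse 2). The replicate block moved no other count by over 1.5 times (44 lower, 38 underrepresented, 27 overrepresented), and among the named members it changed no call beyond the 5 given in the report (Olfr1008, Olfr1049, Olfr1061, Olfr1107 and Olfr1110), except that Olfr1034 became underrepresented (adjusted p = 0.033). The cause of these differences was not tested. Leaving out each mouse gave 35 to 42 lower, 26 to 35 underrepresented and 26 to 28 overrepresented members, and 34 of the 45 lower, 21 of the 36 underrepresented and 23 of the 29 overrepresented members passed in all 6 such fits. The share of the members was different by -1.5 percentage points in TPM (p = 0.1, exact permutation test), by -0.97 without Olfr1033 (chosen after the data were seen), and by -1.04 to -0.45 with each mouse left out. For the ratio to Olfr1141 to Olfr1274 that range was -0.14 to 0.03. The paired differences had exact p = 0.25 for the share, the smallest that 3 pairs allow, and 0.75 for the ratio.

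Of 899 values of named members under an alternative, 15 lost the call on the all-gene scale and 35 on the OR scale, 8 and 2 gained one, and 10 and 3 changed sign. Some values without a call changed sign when a mouse was left out. On the all-gene scale, Olfr1033 ranged from -0.17 to 0.063, Olfr1028 from -0.28 to 0.044, Olfr1062 from -0.27 to 0.10, Olfr1126 from -0.44 to 0.40 (and 0.038 with the replicate block), and Olfr1128, with at most 1 count in a mouse, from -1.91 to 1.85. On the OR scale, Olfr1106 ranged from -0.14 to 0.13 and Olfr1128 from -1.68 to 2.22. For the 14 members with a mean under 10 counts, the few counts limit the precision of their fold changes.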

Other observations

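The stretch from Olfr987 to Olfr1140 also holds 32 other genes of the tables: 23 with pseudogene names, 6 intact ORs numbered outside the range and 3 that are not ORs. Of the 23, 6 had a mean of at least 10 counts and 2 were lower on the all-gene scale. Olfr1004-ps1 had 177.5, 279.1 and 153.3 estimated counts in the wild-type and 26.3, 29.2 and 32.4 in RTP1,2DKO (log2 fold change -2.88, adjusted p = 8.5e-05, edgeR). Olfr1025-ps1, which GENCODE M21 types as protein-coding despite its name, had 425.9, 692.2 and 499.6 against 112.0, 134.0 and 136.0 (log2 fold change -2.17, adjusted p = 4.2e-05, edgeR). In both, every RTP1,2DKO mouse lay below every wild-type mouse. Among the 6 intact ORs with other numbers, Olfr228 (-1.68), Olfr141 (-2.14) and Olfr52 (-1.35) were lower on the all-gene scale, and Olfr228 and Olfr141 were underrepresented on the OR scale too. Olfr52 stands inside the run of lower members from Olfr1042 to Olfr1048. On the OR scale Olfr52 was not underrepresented (log2 fold change -0.39, adjusted p = 0.26, edgeR).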
